A study of Homo sapiens with 18 samples.

Results

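Genes of glycolysis and of the hypoxia response were followed across both endometrial cancer cell lines and all treatments of the study. The list holds 39 genes, of which 17 encode glycolytic enzymes and 22 are other genes known to respond to low oxygen or to control that response. They were chosen by name, with earlier results of these data known. Each gene was read from the probe with its symbol that had the highest mean over all arrays. A probe with the symbol was found for 37 of the 39 genes, among 20046 genes that the annotation names by a single symbol. The lactate exporter SLC16A3 and the carbonic anhydrase CA9 are not analysed here. All 17 glycolytic enzymes and 20 of the 22 other hypoxia genes therefore had values, and all 37 passed the filter on dim probes.

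Biotin-labelled cRNA from total RNA was hybridised to Illumina bead arrays, 18 in all, 3 for each combination of cell line and treatment. The lines were Hec-1A and RL95-2, both established from human endometrial carcinoma. Each was given a control antibody (Control IgG), the growth factor PDGFAA, or PDGFAA with 3G3 (PDGFAA+3G3), an antibody that blocks the receptor PDGFRα. By its title the study asks what blocking this receptor does in uterine cancer, and the submitters' design text sets the profile of Hec-1A against that of RL95-2. An antibody is named in the labels of the Control IgG and PDGFAA+3G3 groups but not in those of the PDGFAA group. The sources used here give no dose, duration or oxygen tension. Nothing says that arrays of a group came from separate cultures, so p-values measure the spread between these arrays, which may be technical. Each line is a single line, and a difference between the lines describes these lines only.

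Cells sense oxygen through the hypoxia-inducible factors. Prolyl hydroxylases encoded by EGLN1, EGLN2 and EGLN3 mark the alpha subunits HIF1A and EPAS1 (HIF-2α) for destruction while oxygen is present, and when oxygen falls the subunits accumulate, pair with ARNT and bind DNA at a short core motif. Their targets include glucose transporters, nearly the whole glycolytic pathway, and genes of mitophagy, matrix hydroxylation and pH control. Tumour cells often run glycolysis at a high rate even in oxygen, and because the alpha subunits are governed chiefly through protein stability, their mRNA does not report their activity.

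The core motif was looked for in the RefSeq promoter windows (GRCh38.p14) that run from 250 bases before to 50 bases after a gene's start. The letters ACGTG or GCGTG were searched on both strands, overlapping matches were counted separately, and the palindrome CACGTG therefore counted once on each strand. Windows were matched by symbol for 35 of the 39 genes; BNIP3L, SLC2A3, NDRG1 and HILPDA had no entry. At least 1 window held a match for 32 of the 35 genes (91.4%), against 52.4% of all 27305 genes with a window. Counted over windows the share was 68.3% of 63 windows for these genes and 48.4% of all 35116 windows. ACGTG alone was found for 20 of the 35 genes (57.1%) and for 24.9% of all genes. Either form was found for 9 of 10 genes higher in Hec-1A under all 3 treatments, 4 of 5 lower and 19 of 20 others. The others include CA9 and SLC16A3, which have no line result. ACGTG alone was found for 4, 1 and 15 genes of these sets, in that order. Below are the windows of 4 genes of the list that differed between the lines by at least about 2-fold under Control IgG: the transcriptional repressor BHLHE40, the mitophagy receptor BNIP3, the glycolytic enzyme PGK1, and the collagen hydroxylase P4HA2, whose window held no match. All 4 were higher in Hec-1A. Capitals mark the matches as read 5′ to 3′ on the gene's strand, where a match on the other strand appears as CACGT or CACGC.
BHLHE40, chr3:4979187-4979486, plus strand, 4 matches: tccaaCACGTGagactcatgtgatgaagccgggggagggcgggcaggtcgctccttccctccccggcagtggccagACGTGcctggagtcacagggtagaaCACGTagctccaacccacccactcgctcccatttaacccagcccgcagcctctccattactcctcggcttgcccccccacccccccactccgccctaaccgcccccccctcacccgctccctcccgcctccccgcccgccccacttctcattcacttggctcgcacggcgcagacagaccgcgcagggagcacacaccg
BNIP3, chr10:131981874-131982173, minus strand, 6 matches: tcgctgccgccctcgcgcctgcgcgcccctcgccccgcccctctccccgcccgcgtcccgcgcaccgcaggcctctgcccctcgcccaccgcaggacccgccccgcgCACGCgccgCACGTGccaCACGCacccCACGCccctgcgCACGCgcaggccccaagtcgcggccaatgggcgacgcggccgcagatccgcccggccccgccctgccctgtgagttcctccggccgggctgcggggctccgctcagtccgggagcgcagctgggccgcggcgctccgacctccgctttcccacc
PGK1, chrX:78103998-78104297, plus strand, 4 matches: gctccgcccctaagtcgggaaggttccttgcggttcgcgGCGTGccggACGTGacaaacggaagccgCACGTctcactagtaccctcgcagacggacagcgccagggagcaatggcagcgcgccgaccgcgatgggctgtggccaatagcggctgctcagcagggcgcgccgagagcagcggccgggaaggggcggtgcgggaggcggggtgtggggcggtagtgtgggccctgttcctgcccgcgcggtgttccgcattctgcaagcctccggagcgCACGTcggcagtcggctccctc
P4HA2, chr5:132227042-132227341, minus strand, 0 matches: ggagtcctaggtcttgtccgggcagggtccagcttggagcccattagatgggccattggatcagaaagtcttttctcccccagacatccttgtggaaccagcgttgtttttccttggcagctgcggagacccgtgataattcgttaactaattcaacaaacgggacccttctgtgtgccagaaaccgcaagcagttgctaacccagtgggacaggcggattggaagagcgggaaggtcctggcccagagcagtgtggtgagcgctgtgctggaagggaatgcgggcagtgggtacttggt
A match is a string of letters in a window and not a shown binding site, and a window without one says nothing about sites elsewhere.

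Levels are log2 of the quantile-normalized signal, with a median of 6.62 on every array, and a level near that median was read as close to background because the table held no detection p-values. The 75th percentile of the signal before normalization ranged from 122.7 to 185.9 across the arrays. All 5 epithelial markers (EPCAM, KRT8, KRT18, KRT19 and CDH1) were above the array median on all 18 arrays, with a mean level of 10.5 to 11. The mean levels of the fibroblast, leukocyte and endothelial markers lay between 6.46 and 6.74 on every array, each list taken whole. Of the 14 of these markers that had a probe, LYZ was above the array median on all 18 arrays (median level 6.79), COL1A1 on 17 (6.95) and CDH5 on 9 (6.80), with means of 7.22 for COL1A1 and 7.19 for CDH5 in RL95-2 against 6.68 and 6.49 in Hec-1A. COL1A2 was above the array median on 9 arrays, DCN on 8, CD14 on 7, PECAM1 on 6 and COL3A1 on 5. PTPRC was above it on 3, LUM and KDR on 2, PDGFRB and CD3E on 1 and VWF on 0. The part of the other cell types in the results was not tested.

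One library stood apart, Hec-1A Control IgG replicate 1, whose lowest correlation with another array of its line was 0.945. On that array 11 of the 37 genes (29.7%) lay at least 0.5 log2 units from the mean of the other arrays of its group, 6 above and 5 below, against 11.9% of all tested probes. KDM3A, a histone demethylase, read 9.27 there and 7.92 and 7.99 on the other arrays of the group. HIF1A read 11.14 against 9.89 and 9.85, P4HA1 9.84 against 8.68 and 9.0, and ALDOC 8.01 against 8.88 and 8.86. The next highest share was 10.8%, on Hec-1A Control IgG replicate 2 and on Hec-1A PDGFAA replicate 2. Line calls under Control IgG that change without the array standing apart are given with and without it below, as are some of the differences it moved. Line comparisons under the other treatments were not recomputed without it, although the estimate of the spread was shared by all groups.

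**Figure D1:**
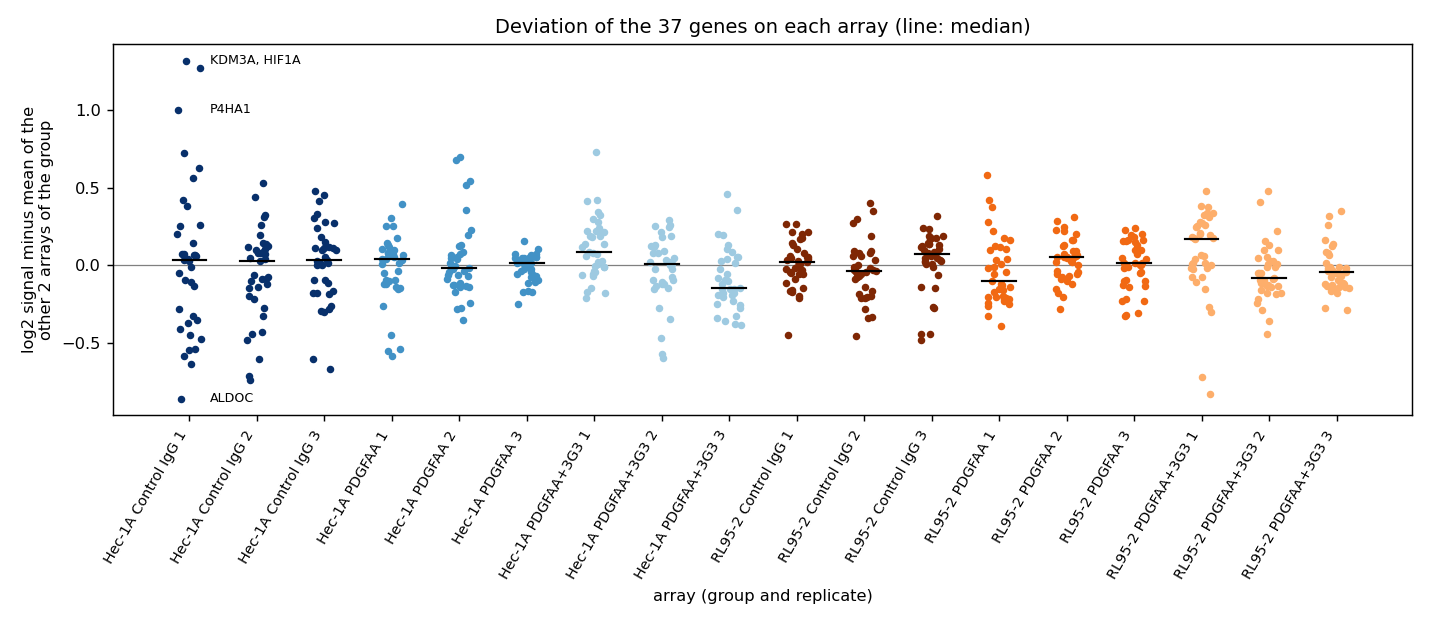
Difference of each of the 37 genes, on each of the 18 arrays, from the mean of the other arrays of its group, in log2 units. Each point is a gene, and the black lines are medians over the genes. The widest spread is on Hec-1A Control IgG replicate 1, where KDM3A and HIF1A lie highest and ALDOC lowest.

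Under Control IgG, most of the genes differed between the lines. Of the 37, 29 passed (limma, Benjamini-Hochberg adjusted p under 0.05 over all 32216 tested probes), against 35.4% of all tested probes. Of these, 19 were higher in Hec-1A (background 17.9%) and 10 were lower (background 17.4%). The difference was at least 2-fold for 15 genes, against 7.90% of probes, and the arrays of the lines did not overlap for 28 genes, against 43.9% of probes. The median difference, Hec-1A minus RL95-2, was 0.36 over the 37 genes and 0.003 over all probes. Each gene was read at its brightest probe, and brighter probes passed more often. With a filter at the 75th percentile of the arrays, 29 of 36 genes passed, against 66.4% of probes. With the mean of all probes of a gene, 29 of 37 passed, against 47.1% of all genes. The 2-fold, overlap and all-treatment shares were not counted at those settings. Among the glycolytic enzymes 8 were higher and 5 lower of 17, with a median of 0.27. Among the other hypoxia genes 11 were higher and 5 lower of 20, with a median of 0.59. Each of these groups of genes held differences in both directions. In bulk RNA a lower level can mean fewer cells with the transcript or less of it per cell, and these cannot be told apart.

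Because each treatment has its own arrays in each line, the line comparison was made 3 times on arrays that do not overlap, although one estimate of the spread was shared. Under PDGFAA 22 genes passed, 13 higher and 9 lower (background 27.7%), and under PDGFAA+3G3 23 passed, 15 higher and 8 lower (background 28.3%). With the filter at the 75th percentile, 23 and 24 of 36 genes passed, against 53.1% and 54% of probes. In the same direction under all 3 treatments, 18 of the 37 genes passed (48.6%), against 19.6% of all probes. They were 7 of the 17 glycolytic enzymes and 11 of the 20 other hypoxia genes. Higher in Hec-1A each time were GPI, ENO1, ENO2, PKM, PFKFB4, NDRG1, BNIP3, CA12, P4HA2, BHLHE40 and VLDLR (11 genes, background 9.55%). Lower each time were HK1, HK2, PFKL, SLC2A3, EGLN3, EPAS1 and HILPDA (7 genes, background 10%). ALDOC, TPI1 and PDK1 passed under none of the treatments by the probe used. Over all 9 arrays of a line, 18 of the 37 genes did not overlap between the lines, against 20.1% of probes.

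**Figure D2:**
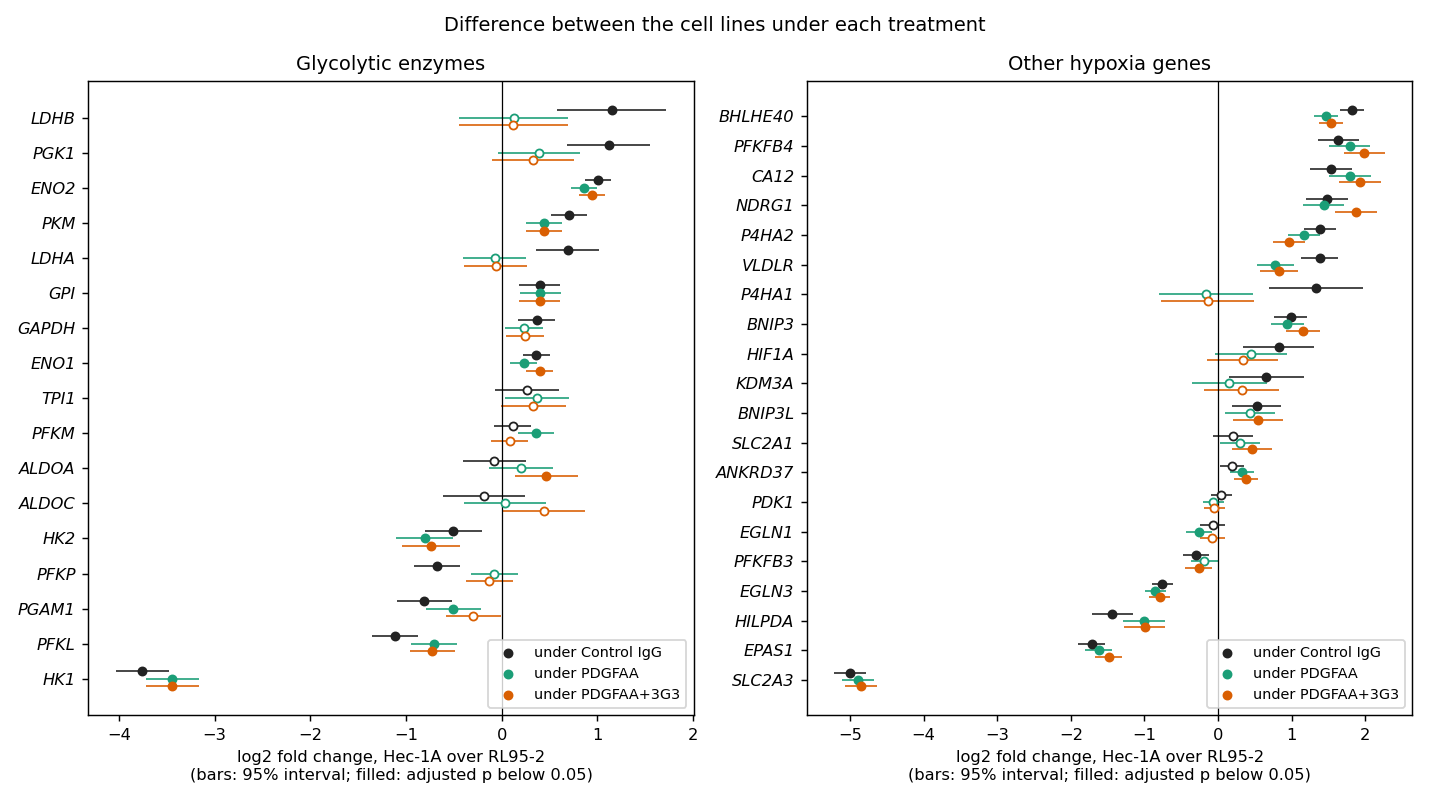
Log2 difference between the lines (Hec-1A minus RL95-2) of each of the 37 genes under Control IgG, PDGFAA and PDGFAA+3G3, with 95% confidence intervals from limma. SLC2A3 and HK1 lie far below 0 under all 3 treatments, and the genes from BNIP3 to BHLHE40 lie above it, apart from P4HA1, which does so under Control IgG alone.

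Glucose enters through facilitative transporters, and SLC2A3 (GLUT3; chromosome 12, probe ILMN_1775708), a high-affinity one, showed the largest difference of the list. Its level was 6.87, 6.76 and 6.85 on the Hec-1A Control IgG arrays and 11.97, 11.60 and 11.91 on those of RL95-2. Over the 9 arrays of each line it ran from 6.72 through a median of 6.82 to 6.89 in Hec-1A and from 11.54 through 11.75 to 11.97 in RL95-2, so that it was near background on every Hec-1A array and bright on every RL95-2 array. The difference was -5.00 ± 0.10 (SE, n = 3 against 3, adjusted p = 1.32e-15 by limma), and -4.90 and -4.86 under PDGFAA and PDGFAA+3G3. Because the Hec-1A level is so close to background, no exact fold is given. The difference ran from -6.19 to -4.93 under other processing or on leaving out 1 array. SLC2A14 is a near-identical copy of SLC2A3, and whether the probe also binds its transcript was not tested. SLC2A1 (GLUT1), the transporter most cells use for basal uptake, had means of 10.41 ± 0.19 in Hec-1A and 10.20 ± 0.11 in RL95-2 (SD, n = 3) and did not pass under Control IgG. It passed under PDGFAA+3G3 at 0.47 ± 0.13 (SE; adjusted p = 0.0103), a call lost without Hec-1A PDGFAA+3G3 replicate 1 (0.33, adjusted p = 0.0670) or RL95-2 PDGFAA+3G3 replicate 3 (0.37, adjusted p = 0.0624).

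Hexokinases trap glucose as glucose 6-phosphate. HK1, the widely expressed hexokinase (chromosome 10, probe ILMN_2382990), read 8.08, 8.21 and 8.05 in Hec-1A under Control IgG and 11.88, 11.65 and 12.08 in RL95-2. The lines stayed far apart on all arrays, with 8.0 to 8.33 around a median of 8.13 in Hec-1A and 11.43 to 12.08 around 11.76 in RL95-2. The difference was -3.75 ± 0.13 (SE, n = 3 against 3, adjusted p = 1.25e-12), 13.5-fold lower in Hec-1A, and -3.44 under each of the other treatments. HK2, the isoform that hypoxia and insulin raise, was also lower in Hec-1A, with -0.51 ± 0.14 (adjusted p = 0.00936), -0.81 and -0.74 under the 3 treatments. The call on HK2 under Control IgG was lost without Hec-1A Control IgG replicate 2 (-0.36, adjusted p = 0.0530) or RL95-2 Control IgG replicate 1 (-0.42, adjusted p = 0.0521). A second, dim HK1 probe differed in the same direction, by -0.38 under Control IgG, with a Hec-1A mean of 6.55 at background.

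The upper pathway was split between isoforms and enzymes. GPI, which makes fructose 6-phosphate, was 0.40 ± 0.10 higher in Hec-1A under each treatment (SE; adjusted p = 0.00480 under Control IgG). Phosphofructokinase, the committed step, is built from 3 subunits: PFKL, the liver-type one (chromosome 21, probe ILMN_1713037), read 7.64, 7.78 and 7.71 in Hec-1A and 8.72, 8.80 and 8.95 in RL95-2 under Control IgG. No array of one line reached the other over the 18 arrays, with medians of 7.80 and 8.72. The difference in PFKL was -1.11 ± 0.11 (adjusted p = 6.78e-07), 2.16-fold lower in Hec-1A, and -0.71 and -0.72 under the other treatments. The platelet-type subunit PFKP was lower in Hec-1A under Control IgG (-0.67 ± 0.11, adjusted p = 0.000182) and had -0.08 and -0.13, without passing, under the others. The muscle-type subunit PFKM had 0.12 under Control IgG and passed under PDGFAA at 0.36 ± 0.09 (adjusted p = 0.00570). Without Hec-1A Control IgG replicate 1 PFKM passed under Control IgG as well, at 0.25 (adjusted p = 0.00577). The aldolases ALDOA and ALDOC, which split fructose 1,6-bisphosphate, had -0.08 and -0.19 under Control IgG without passing, and 0.11 and 0.10 without Hec-1A Control IgG replicate 1. ALDOA passed under PDGFAA+3G3 at 0.47 ± 0.16 (adjusted p = 0.0338), a call lost on leaving out Hec-1A PDGFAA+3G3 replicate 1 or 2 or RL95-2 PDGFAA+3G3 replicate 2 or 3, with 0.37 to 0.49.

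In the lower pathway, which yields ATP, passing differences favoured Hec-1A with PGAM1 as the exception. PGK1, the first ATP-forming enzyme (chromosome X, probe ILMN_1755749), read 12.19, 11.62 and 12.01 in Hec-1A under Control IgG and 10.96, 10.86 and 10.64 in RL95-2. These groups did not overlap, but the lines did across treatments, where Hec-1A ran from 10.95 to 12.19 and RL95-2 from 10.64 to 11.28. The difference in PGK1 under Control IgG was 1.12 ± 0.20 (SE, n = 3 against 3, adjusted p = 0.000336), 2.17-fold higher in Hec-1A, and 0.39 and 0.33 without passing under PDGFAA and PDGFAA+3G3. The other PGK1 probe, which is dimmer, separated the lines on all 18 arrays and passed under all 3 treatments, at 1.47, 0.77 and 0.95. ENO2, the neuronal enolase (chromosome 12, probe ILMN_1765796), read 7.60, 7.67 and 7.54 in Hec-1A and 6.45, 6.72 and 6.61 in RL95-2, where it was at background. In Hec-1A it stood at least 1.93-fold above RL95-2 (difference 1.01 ± 0.06, adjusted p = 2.24e-09), a lower bound with the RL95-2 arrays raised to the array median. ENO1, the main enolase, was among the brightest, at 13.79 ± 0.04 in Hec-1A and 13.43 ± 0.10 in RL95-2 (SD, n = 3), and was 0.36 higher in Hec-1A (adjusted p = 0.000302). Under PDGFAA the ENO1 difference of 0.23 was lost without Hec-1A PDGFAA replicate 3 (0.21, adjusted p = 0.0515) or RL95-2 PDGFAA replicate 1 (0.19, adjusted p = 0.0737). PKM, which encodes pyruvate kinase, was 0.70 ± 0.09 higher (adjusted p = 9.87e-06) and 0.44 higher under each of the other treatments. PGAM1, the phosphoglycerate mutase, was 0.81 lower in Hec-1A under Control IgG (-0.81 ± 0.13, adjusted p = 0.000152; -0.66 without Hec-1A Control IgG replicate 1), -0.51 under PDGFAA, and -0.30 without passing under PDGFAA+3G3 (adjusted p = 0.124). GAPDH differed by 0.37 ± 0.09 (adjusted p = 0.00444), with another of its probes at 0.19 and not passing (adjusted p = 0.214). TPI1, the triose isomerase, had 0.27 to 0.37 under the 3 treatments and did not pass, and passed under Control IgG without Hec-1A Control IgG replicate 1 (0.44, adjusted p = 0.0247).

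Lactate dehydrogenase interconverts pyruvate and lactate, and its subunits LDHA and LDHB were high in both lines. LDHB (chromosome 12, probe ILMN_1728132) read 13.51, 12.73 and 12.84 on the Hec-1A Control IgG arrays and 11.96, 12.11 and 11.56 on those of RL95-2. The groups did not overlap under Control IgG, with the array standing apart the highest, and the lines overlapped across treatments (11.84 to 13.51 in Hec-1A, 11.56 to 12.61 in RL95-2). The LDHB difference was 1.15 ± 0.27 (SE, adjusted p = 0.00263), 2.22-fold higher in Hec-1A, or 0.91 (adjusted p = 0.0121) without that array. LDHA read 14.04, 13.81 and 13.75 in Hec-1A and 13.27, 13.37 and 12.88 in RL95-2, a difference of 0.69 ± 0.15 (adjusted p = 0.00203). Under PDGFAA and PDGFAA+3G3 the differences were -0.07 and -0.06 for LDHA and 0.13 and 0.12 for LDHB, and neither passed. PGK1, LDHA, LDHB, PFKP, P4HA1, HIF1A, KDM3A and GAPDH passed under Control IgG and under neither other treatment by the probe used. For PGK1 and GAPDH this depended on the probe, as given below. With array weights HIF1A passed under PDGFAA and GAPDH under both other treatments. The test of the change itself, the difference between the lines in the response to PDGFAA or to PDGFAA+3G3, did not pass for any of the genes just listed.

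**Figure D3:**
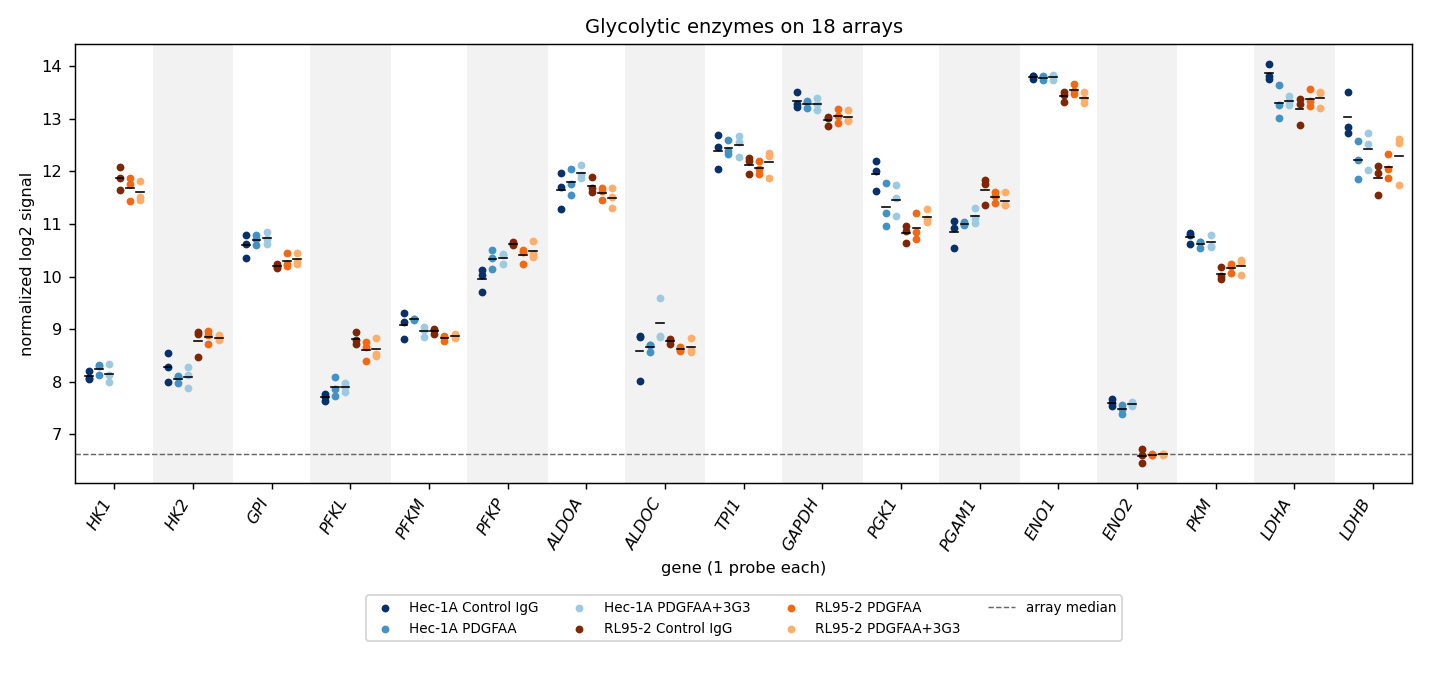
Log2 signal of the 17 glycolytic enzymes on all 18 arrays, by line (blue, Hec-1A; orange, RL95-2) and treatment (shade). Points are arrays, black bars group means, and the dashed line the array median of 6.62. HK1 lies near 8 in Hec-1A and near 12 in RL95-2, and ENO2 in RL95-2 lies on the dashed line.

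The bifunctional enzymes PFKFB3 and PFKFB4 set fructose 2,6-bisphosphate, the main activator of phosphofructokinase, and differed in opposite directions. PFKFB4 (chromosome 3, probe ILMN_1653292) read 9.39, 9.84 and 9.89 in Hec-1A under Control IgG and 7.98, 8.05 and 8.19 in RL95-2. It stayed above every RL95-2 array on every Hec-1A array, with 9.39 to 9.96 around 9.81 against 7.64 to 8.19 around 8.04. The difference was 1.63 ± 0.13 (SE, n = 3 against 3, adjusted p = 4.88e-08), 3.10-fold, and 1.79 and 1.99 under the other treatments. Without the array standing apart, the Control IgG difference was 1.79. PFKFB3 was lower in Hec-1A by a smaller amount under Control IgG (-0.30 ± 0.08, adjusted p = 0.0101) and under PDGFAA+3G3 (-0.26, adjusted p = 0.0275). The Control IgG call on PFKFB3 was lost without Hec-1A Control IgG replicate 2 (-0.23, adjusted p = 0.0554) or RL95-2 Control IgG replicate 3 (-0.22, adjusted p = 0.0659). The PDGFAA+3G3 call was lost without any of 5 of the 6 arrays, Hec-1A PDGFAA+3G3 replicate 1 being the exception, with -0.27 to -0.20. PDK1, the kinase that shuts pyruvate out of the mitochondrion, lay at background in both lines (6.67 ± 0.07 and 6.63 ± 0.08, SD, n = 3) and had 0.04 to -0.06.

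Both alpha subunits were measured. HIF1A (chromosome 14, probe ILMN_2379788) read 11.14, 9.89 and 9.85 in Hec-1A under Control IgG and 9.51, 9.42 and 9.48 in RL95-2. The lines did not overlap over all arrays (9.73 to 11.14 around 9.89, against 9.26 to 9.60 around 9.48), and the array standing apart gave the highest value. The difference was 0.82 ± 0.23 (SE, adjusted p = 0.00911), and without that array it was 0.40 (adjusted p = 0.000863). Under PDGFAA and PDGFAA+3G3 HIF1A had 0.45 and 0.34 and did not pass. The estimate of the spread was shared by all groups. The SD of the Hec-1A arrays was 0.73 under Control IgG, 0.02 under PDGFAA and 0.10 under PDGFAA+3G3. With array weights HIF1A passed under PDGFAA (limma, adjusted p = 0.0187), and under PDGFAA+3G3 it passed in no alternative run. The 2 other HIF1A probes were higher in Hec-1A too, by 1.19 and 1.11 under Control IgG. The array standing apart was again the highest, with 9.74 against 8.73 and 8.73 for the first and 9.39 against 8.54 and 8.51 for the second.

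EPAS1, the HIF-2α gene (chromosome 2, probe ILMN_1704753), ran the other way. It read 7.44, 7.34 and 7.39 in Hec-1A and 9.12, 8.99 and 9.19 in RL95-2 under Control IgG. The lines were separate on all 18 arrays, with 7.32 to 7.53 around 7.39 against 8.82 to 9.19 around 9.02. EPAS1 was 3.29-fold lower in Hec-1A (-1.72 ± 0.09, SE, adjusted p = 1.34e-10), and differed by -1.62 and -1.49 under the other treatments. Of the prolyl hydroxylases, EGLN3, itself a hypoxia target, was at least 1.65-fold lower in Hec-1A (-0.76 ± 0.07, adjusted p = 2.06e-07), with a Hec-1A mean of 6.61 at background. EGLN1, the main oxygen sensor, had -0.07 and -0.08 under Control IgG and PDGFAA+3G3 and passed under PDGFAA at -0.26 ± 0.08 (adjusted p = 0.0236), a call lost without Hec-1A PDGFAA replicate 2 or 3 or RL95-2 PDGFAA replicate 1 (-0.24 to -0.22).

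BHLHE40 (DEC1), a transcriptional repressor whose promoter window held 4 core matches above, had the largest excess in Hec-1A under Control IgG among the genes above background in both lines (chromosome 3, probe ILMN_1768534). It read 11.04, 10.96 and 10.82 in Hec-1A and 8.99, 9.16 and 9.21 in RL95-2 under Control IgG. The lines were separate on all arrays, from 10.60 to 11.04 around 10.73 against 8.99 to 9.29 around 9.21. The difference was 1.82 ± 0.08 (SE, n = 3 against 3, adjusted p = 1.49e-11), 3.53-fold, and 1.47 and 1.54 under the other treatments. NDRG1, a stress-induced gene used as a hypoxia marker in tumours (chromosome 8, probe ILMN_1809931), read 9.76, 9.58 and 9.79 in Hec-1A and 8.30, 8.04 and 8.34 in RL95-2. It too was separate on all arrays (medians 9.58 and 8.04), with a difference of 1.48 ± 0.13 (adjusted p = 1.93e-07), 2.79-fold, and 1.44 and 1.88 under the other treatments. ANKRD37, a small ankyrin-repeat gene that HIF-1 induces, had 0.19 under Control IgG without passing and passed under PDGFAA (0.33) and PDGFAA+3G3 (0.38), and without Hec-1A Control IgG replicate 1 it passed under Control IgG as well (0.28, adjusted p = 0.00473).

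BNIP3 and BNIP3L place receptors for mitophagy on the mitochondrion. BNIP3, whose window held 6 core matches, was 0.99 ± 0.11 higher in Hec-1A under Control IgG (SE, adjusted p = 1.57e-06), 0.94 under PDGFAA and 1.16 under PDGFAA+3G3. Its 9 Hec-1A arrays, from 11.24 to 11.81, lay above its 9 RL95-2 arrays, from 10.24 to 10.58. BNIP3L differed by 0.52 ± 0.16 (adjusted p = 0.0157), a call lost without Hec-1A Control IgG replicate 1 (0.32, adjusted p = 0.0792) or RL95-2 Control IgG replicate 3 (0.48, adjusted p = 0.0610). Its call under PDGFAA+3G3 (0.54, adjusted p = 0.0160) was lost without Hec-1A PDGFAA+3G3 replicate 1, RL95-2 PDGFAA+3G3 replicate 2 or RL95-2 PDGFAA+3G3 replicate 3, with 0.43 to 0.50.

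P4HA1 and P4HA2 encode catalytic subunits of collagen prolyl 4-hydroxylase. P4HA2 (chromosome 5, probe ILMN_1795778) read 9.14, 9.26 and 9.29 in Hec-1A and 7.78, 7.89 and 7.84 in RL95-2 under Control IgG. The lines were separate on all arrays, 8.87 to 9.35 against 7.78 to 8.18, and the difference was 1.39 ± 0.10 (SE, adjusted p = 1.62e-08), 2.63-fold, then 1.17 and 0.96 under the other treatments. Of the 2 further P4HA2 probes, the brighter was also higher (0.87, adjusted p = 3.02e-07) and the dim one, near background in both lines, did not pass (0.11, adjusted p = 0.181). P4HA1 (chromosome 10, probe ILMN_1693334) had the widest interval of the list and read 9.84, 8.68 and 9.0 in Hec-1A and 7.87, 8.11 and 7.54 in RL95-2. Under Control IgG its arrays did not overlap and it was 1.33 ± 0.30 higher in Hec-1A (adjusted p = 0.00203), 2.52-fold, or 1.00 (adjusted p = 0.00825) without the array standing apart. Under PDGFAA and PDGFAA+3G3 the P4HA1 differences were -0.16 and -0.14, and the lines overlapped.

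CA12, a membrane carbonic anhydrase that helps cells handle acid (chromosome 15, probe ILMN_1720998), read 7.71, 8.49 and 8.21 in Hec-1A and 6.57, 6.58 and 6.67 in RL95-2 under Control IgG. All RL95-2 arrays were near background and below all Hec-1A arrays, and CA12 in Hec-1A stood at least 2.83-fold above RL95-2 (1.53 ± 0.13, SE, adjusted p = 1.33e-07; 1.75 without the array standing apart), at least 3.32-fold under PDGFAA and at least 3.67-fold under PDGFAA+3G3. VLDLR, a lipoprotein receptor that HIF-1 raises (chromosome 9, probe ILMN_2361862), read 8.31, 7.75 and 7.74 in Hec-1A and 6.58, 6.52 and 6.54, at background, in RL95-2. The lines were separate on all arrays, and VLDLR in Hec-1A stood at least 2.47-fold above RL95-2 (1.38 ± 0.12, adjusted p = 1.32e-07), with a difference of 1.19 without the array standing apart. HILPDA, a lipid droplet protein induced by hypoxia (chromosome 7, probe ILMN_1659990), read 7.80, 8.40 and 8.37 in Hec-1A and 9.62, 9.58 and 9.69 in RL95-2. It was lower on all Hec-1A arrays than on any RL95-2 array, by -1.44 ± 0.13 (adjusted p = 2.53e-07; -1.24 without the array standing apart), 2.71-fold, and by -1.0 under each of the other treatments. KDM3A, which removes methyl groups from histone H3, differed by 0.66 ± 0.24 (adjusted p = 0.0423), and 0.22 (adjusted p = 0.0908) without Hec-1A Control IgG replicate 1, 0.59 (adjusted p = 0.127) without RL95-2 Control IgG replicate 2 and 0.64 (adjusted p = 0.103) without RL95-2 Control IgG replicate 3.

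**Figure D4:**
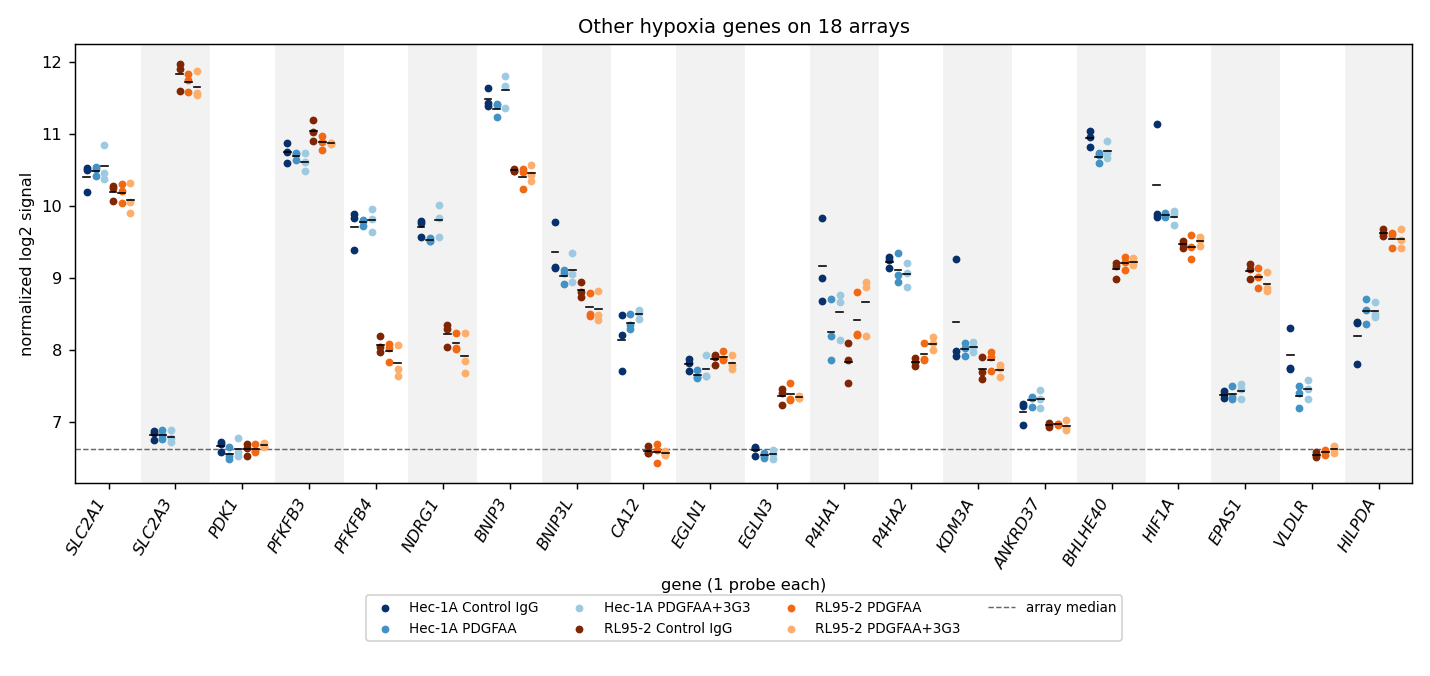
Log2 signal of the 20 other hypoxia genes on all 18 arrays, by line (blue, Hec-1A; orange, RL95-2) and treatment (shade). Points are arrays, black bars group means, and the dashed line the array median of 6.62. SLC2A3 lies near the dashed line in Hec-1A and near 12 in RL95-2, EPAS1 and HILPDA are lower in Hec-1A, and BHLHE40, NDRG1, PFKFB4 and P4HA2 are higher.

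Probes of the same gene were compared where there was more than 1. Of 17 genes with over 1 tested probe, all tested probes passed in the same direction under Control IgG for 10, and no gene had a probe passing in the opposite direction to the one used. For PFKL, PFKP, GAPDH, P4HA1 and P4HA2 a further probe did not pass. The further PFKL, PFKP and P4HA1 probes had group means between 6.52 and 6.74 under Control IgG, near the array median. With the mean of all probes of a gene in place of the brightest, PGK1 (0.58 and 0.64), GAPDH (0.24 and 0.28) and TPI1 (0.30 and 0.37) passed under PDGFAA and PDGFAA+3G3, PGAM1 passed under PDGFAA+3G3 as well (-0.43), and so did PFKFB3 under PDGFAA (-0.23).

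The treatment comparisons ask what PDGFAA changes in each line and what 3G3 changes in its presence. None of the 37 genes passed in any of the 6 treatment comparisons, or in any of the 3 differences between the lines in a treatment effect (limma, adjusted p over all tested probes). The share of all probes that passed was 0% for PDGFAA against Control IgG in Hec-1A and 0.00621% in RL95-2. It was 0% in Hec-1A and 0.0031% in RL95-2 for PDGFAA+3G3 against PDGFAA, and 0.0031% and 0% for PDGFAA+3G3 against Control IgG. For the differences between the lines it was 0.0031% for PDGFAA, 0% for 3G3 and 0% for PDGFAA+3G3 against Control IgG. The comparisons with a common control or PDGFAA group share those arrays and are not independent. In the 6 treatment comparisons, the 95% interval of a gene's difference reached 0.26 on either side at the median gene. At the widest, P4HA1, it reached 0.64. In the 3 differences between the lines in a treatment effect these values were 0.36 and 0.90. The intervals were not adjusted for the number of probes.

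At an unadjusted p under 0.05, PDGFAA against Control IgG picked out 8 of the 37 genes in Hec-1A, where 20.9% of all probes did so, and 0 in RL95-2, where 5.69% did. VLDLR had the smallest p in Hec-1A: it read 8.31, 7.75 and 7.74 under Control IgG and 7.20, 7.5 and 7.41 under PDGFAA. These arrays did not overlap, and the difference of -0.56 (95% interval -0.82 to -0.31) had an adjusted p of 0.1125. LDHA read 14.04, 13.81 and 13.75 under Control IgG and 13.01, 13.65 and 13.26 under PDGFAA, with -0.56 (-0.89 to -0.23) and the same adjusted p. BHLHE40 had -0.26 (adjusted p = 0.117), with arrays that did not overlap. Leaving out Hec-1A Control IgG replicate 2 brought 7 genes past the threshold, VLDLR (-0.65, adjusted p = 0.0133) and LDHA (-0.59, adjusted p = 0.0459) among them, when 11.1% of all probes passed. Leaving out replicate 1 or replicate 3 of that group brought 0 past it, and without replicate 1, the array standing apart, VLDLR had -0.37 (adjusted p = 0.287) and LDHA -0.47 (adjusted p = 0.395). In RL95-2 the smallest p-values belonged to PFKP (-0.22), PFKL (-0.22) and P4HA1 (0.58), each with an adjusted p of 0.874. Without RL95-2 PDGFAA replicate 1 they had -0.14, -0.11 and 0.38.

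Addition of 3G3 to PDGFAA gave an unadjusted p under 0.05 for 3 genes in Hec-1A (4.07% of all probes) and 1 in RL95-2 (3.23%). The 3 in Hec-1A were PFKM at -0.23, BNIP3 at 0.26 and ALDOC at 0.45, with adjusted p-values of 1.00. ALDOC read 8.70, 8.56 and 8.70 under PDGFAA and 9.59, 8.88 and 8.85 under PDGFAA+3G3, so that the groups did not overlap and replicate 1 was the highest. Without Hec-1A PDGFAA+3G3 replicate 1 the ALDOC difference was 0.21 and that of BNIP3 0.16. In RL95-2 the smallest p-values were those of ENO1 (-0.16), P4HA2 (0.14) and PFKFB4 (-0.17), all with an adjusted p of 1 and with overlapping arrays. For ENO1 the 95% interval ran from -0.30 to -0.02, and without RL95-2 PDGFAA replicate 3 its difference was -0.10.

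PDGFAA+3G3 against Control IgG gave an unadjusted p under 0.05 for 12 genes in Hec-1A (20.4% of all probes) and 3 in RL95-2 (9.39%). In Hec-1A these were led by VLDLR (-0.47, adjusted p = 0.0691), PFKP (0.41, adjusted p = 0.0810) and LDHA (-0.53, adjusted p = 0.0862). PFKP read 9.71, 10.12 and 10.03 under Control IgG, 10.50, 10.14 and 10.34 under PDGFAA and 10.41, 10.42 and 10.24 under PDGFAA+3G3, so that every treated array lay above every control array. Without Hec-1A Control IgG replicate 2, 4 genes passed when 12% of all probes did, among them VLDLR (-0.56, adjusted p = 0.0133) and PFKP (0.49, adjusted p = 0.0188). Without replicate 1, the array standing apart, 0 passed, with VLDLR at -0.29 (adjusted p = 0.188), PFKP at 0.28 (adjusted p = 0.340) and LDHA at -0.44 (adjusted p = 0.334). In RL95-2 the leading genes were P4HA1 (0.83, adjusted p = 0.459), P4HA2 (0.25, adjusted p = 0.488) and NDRG1 (-0.30, adjusted p = 0.510), which had -0.46 without RL95-2 PDGFAA+3G3 replicate 1 and -0.18 without replicate 2 of that group. P4HA1 read 7.87, 8.11 and 7.54 under Control IgG, 8.80, 8.23 and 8.21 under PDGFAA and 8.19, 8.94 and 8.88 under PDGFAA+3G3 in that line, where the control arrays were the lowest.

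The response to PDGFAA was then compared between the lines. An unadjusted p under 0.05 was reached by 9 genes (19.8% of all probes), led by PFKP (0.60), P4HA1 (-1.50) and VLDLR (-0.60), each with an adjusted p of 0.136. PFKP in RL95-2 read 10.61, 10.61 and 10.66 under Control IgG and 10.24, 10.46 and 10.50 under PDGFAA, below every control array, whereas in Hec-1A all PDGFAA arrays lay above the controls. The difference in the response to 3G3 gave 2 genes (2.82%) at that level, NDRG1 (0.44) and PFKM (-0.27), and ENO1 (0.17) came next, with adjusted p-values of 1.00. The difference in PDGFAA+3G3 against Control IgG gave 13 (21.5%), led by P4HA1 (-1.48, adjusted p = 0.0965), LDHA (-0.75, adjusted p = 0.0984) and PFKP (0.54, adjusted p = 0.101). Without Hec-1A Control IgG replicate 2, 3 genes passed in the difference in the PDGFAA response (6.69% of all probes) and 5 in that of PDGFAA+3G3 against Control IgG (9.91%), PFKP (0.68 and 0.63) and P4HA1 (-1.74 and -1.72) in both. Without replicate 1 of that group 0 passed in either, and these differences were 0.47 and 0.42 for PFKP and -1.16 and -1.14 for P4HA1.

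**Figure D5:**
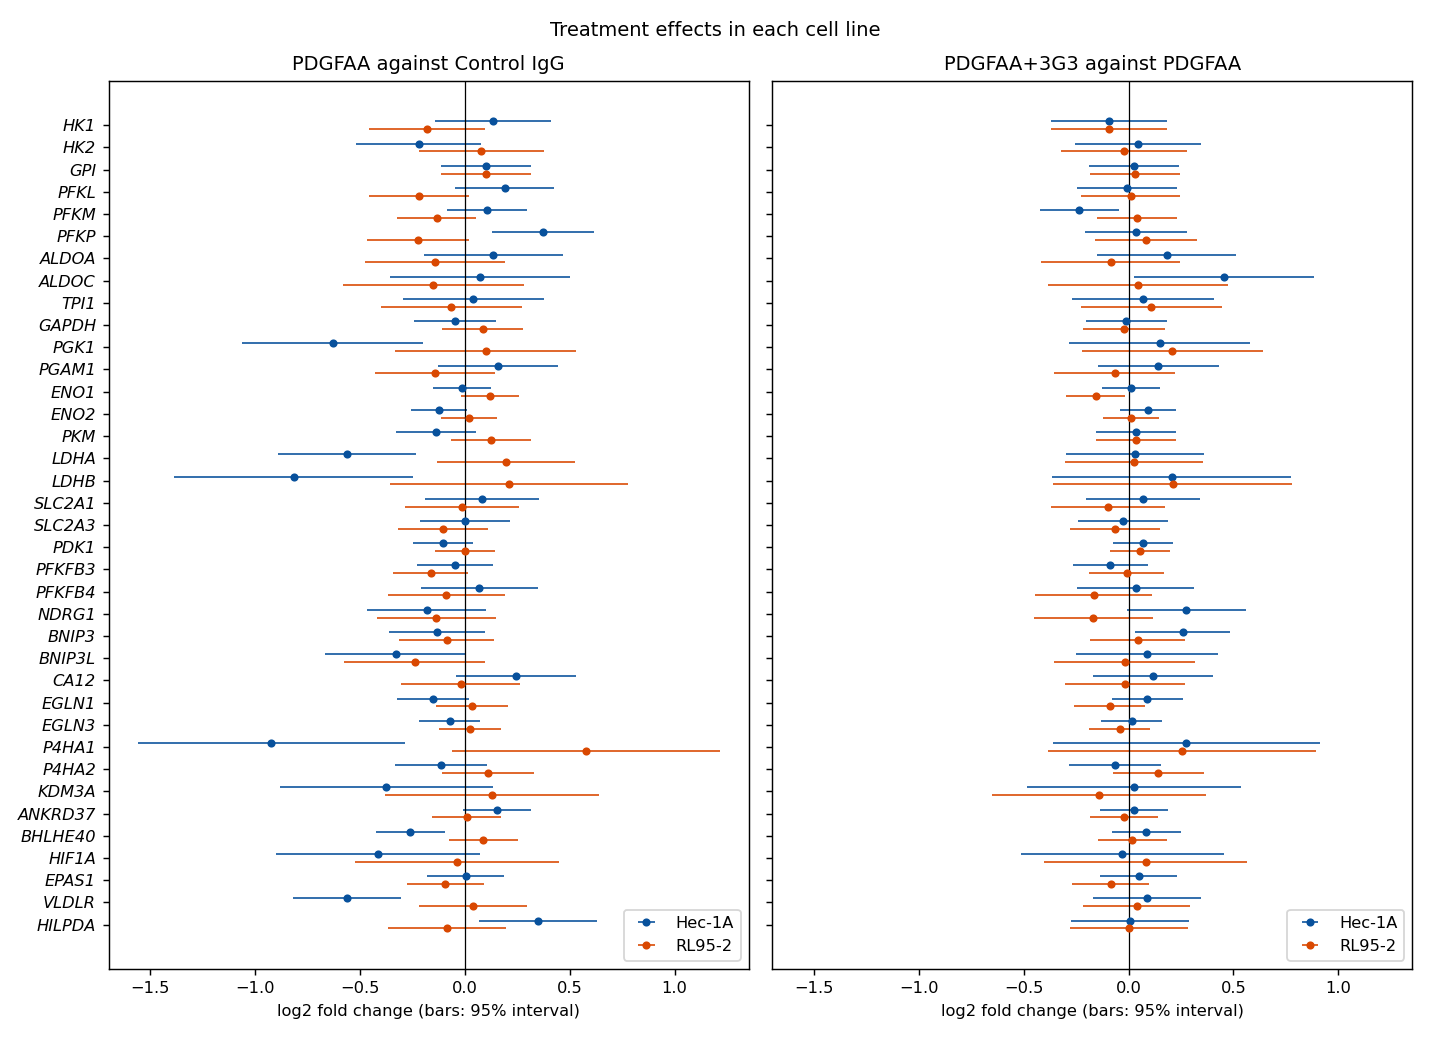
Log2 differences of the 37 genes in PDGFAA against Control IgG (left) and PDGFAA+3G3 against PDGFAA (right), in Hec-1A (blue) and RL95-2 (orange), with 95% confidence intervals from limma. No gene passed at an adjusted p under 0.05, and P4HA1 has the widest interval.

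The surrounding pathways were counted between the lines under Control IgG, from lists of genes not on the main list. Of 9 tested isoenzymes of glycolysis and gluconeogenesis, 1 was higher and 4 were lower in Hec-1A. The higher one was HKDC1, a further hexokinase-like gene, at 9.54 in Hec-1A and at background in RL95-2, at least 7.48-fold higher (2.92 ± 0.08, SE, adjusted p = 7.95e-14). The lower ones included PCK2, the mitochondrial enzyme that makes phosphoenolpyruvate (-1.15), ADPGK (-0.46) and ENO3 (-0.46). Of 6 tested glucose and lactate transporters, 0 were higher and 2 lower, SLC2A6 (-1.37) and BSG, the chaperone of the lactate transporters (-0.88). Of 10 tested glycogen enzymes, 5 were higher in Hec-1A and 0 lower: the branching enzyme GBE1 (1.75 ± 0.14, adjusted p = 4.24e-08), the phosphorylases PYGL (1.33) and PYGB (1.11), UGP2, which makes UDP-glucose (1.28), and PGM1 (0.83). Of 11 tested genes of pyruvate dehydrogenase and its regulators, 6 were higher, with DLAT, its acetyltransferase subunit, at 1.22 and PDP1, the phosphatase that activates it, at 1.13, and 2 were lower, PDHA1 (-0.35) and MPC1 (-0.41). Of 7 tested pentose phosphate enzymes, 2 were higher (RPE at 0.94, RPIA at 0.44) and 2 lower (PGLS at -1.01, PGD at -0.50). The background for these counts is the 17.9% of probes higher and 17.4% lower given above. Under PDGFAA and then PDGFAA+3G3, the higher and lower counts were 1 and 3, then 3 and 3 for the isoenzymes. They were 2 and 2, then 1 and 1 for transporters, and 4 and 1 both times for glycogen enzymes. For pyruvate dehydrogenase they were 4 and 0, then 5 and 0, and for pentose phosphate 2 and 0, then 1 and 1. The lowest differences were then -0.73 and -0.81 for the isoenzymes and -0.33 and -0.50 for pentose phosphate.

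Of 14 tested genes of the HIF machinery, 3 were higher in Hec-1A (background 17.9%) and 4 lower (background 17.4%). The lower ones were the VHL ligase components ELOB (-1.38 ± 0.28, SE, adjusted p = 0.000938), ELOC (-0.97) and VHL itself (-0.60), and the HIF inhibitor CITED2 (-0.46). The higher ones were CUL2, the scaffold of the same ligase (0.36), HIF1AN, which blocks the transactivation domain (0.25), and SIAH1 (0.23). Of 25 other tested HIF target genes, 7 were higher and 9 lower, against the same shares of all probes, with a median of 0.01. The lower ones were led by ADM, the peptide adrenomedullin, whose mean level was 7.75 in Hec-1A against 13.15 in RL95-2 (-5.40 ± 0.12, adjusted p = 2.86e-15), DDIT4, an inhibitor of mTOR signalling (-2.72), IGFBP3 (-1.87) and MIF (-1.04). The higher ones were led by the chemokine receptor CXCR4, at least 5.75-fold higher, INSIG2 (2.08), TMEM45A, at least 1.79-fold higher, and WSB1 (0.54). Of the HIF machinery 1 gene was higher and 3 lower under PDGFAA, and 2 and 3 under PDGFAA+3G3, with lowest differences of -0.58 and -0.44. Of these HIF targets 8 were higher and 8 lower, then 6 and 6. All-probe shares passing either way were 27.7% and 28.3%. None of these further lists was recomputed without the array standing apart.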

How the data were processed

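The authors deposited 1 table of signal intensity that was not normalized, exported with BeadStudio per the labels' description, and processed log2 values of the same 47231 probes. The log2 values deposited differed by at most 0.0438 from a quantile normalization of the intensities, which was therefore the input, from the intensity table (log2, floor of 16, reached by 0 values). No detection p-values were in the table, so the filter kept the 32216 probes (68.2%) that exceeded the array median on 3 or more arrays. No background was subtracted, which understates folds of dim probes, and the number of arrays limits precision. No chip or scan batch is named in the sources used here, and none was analysed.

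The platform annotation gave 1 symbol to 30113 probes, several to 8 and none to 17110, and the Entrez IDs of 30074 were in the RefSeq gene table, which changed 0 symbols. Chromosomes and promoter windows are RefSeq's (GRCh38.p14). Group means were fitted with limma 3.58.1 in R 4.3.3 (12 residual and 3.29 prior degrees of freedom), with 12 two-sided comparisons, each adjusted by Benjamini-Hochberg over all tested probes at a threshold of 0.05. A group mean at or below the array median gave a fold as "at least", with its arrays raised to that median. The fit was tested on simulated data with independent noise and the same spread on every array. That simulation does not cover an array standing apart from its group. Figures used matplotlib 3.10.9 in Python 3.11.15.

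Members and lists were chosen with earlier results of these data known. Values on every array are given for genes past the threshold and at least 2-fold apart under Control IgG, and for HIF1A and EPAS1; in each treatment comparison the 3 genes with the smallest p are named, and of each further list up to 4 passing genes each way. Some Control IgG values of other genes are also given, chosen after they were seen. Replicate numbers were checked for pairing by correlating deviations from the group means. Between arrays of a line with the same number the correlations ran from -0.701 to 0.331. Between the lines within a treatment they ran from -0.565 to 0.47. Values this mixed, from 3 arrays a group, cannot decide whether the numbers pair the samples, and the main fit used no pairing.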

Additional observations from a re-analysis of the deposited data

Results flagged for a closer look

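PFKP, the platelet-type phosphofructokinase subunit, was flagged because its PDGFAA differences had opposite signs in the lines and its arrays did not overlap. All Hec-1A PDGFAA arrays lay above the Hec-1A Control IgG arrays (difference 0.37) and all RL95-2 PDGFAA arrays below the RL95-2 ones (-0.22), so that the effect in Hec-1A minus that in RL95-2 was 0.60. The test of this difference gave an adjusted p of 0.136 (limma, n = 3 arrays a group) and did not pass. In Hec-1A the gap was narrow, from 10.125 on the highest Control IgG array to 10.139 on the lowest PDGFAA array. The share of all probes with such opposite shifts was not counted. The Hec-1A value rests on control arrays that include the one standing apart, which read 9.71 against 10.12 and 10.03. Without that array the difference between the lines was 0.47 (adjusted p = 0.199).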

How the results depend on the processing

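The counts of genes differing between the lines kept within 1.5 times of 29, 22 and 23 (Control IgG, PDGFAA, PDGFAA+3G3) under all alternatives run: 25 to 32, 16 to 26 and 19 to 26, and on leaving out 1 array 26 to 30, 20 to 23 and 19 to 23. No named gene that passed reversed. Leaving out an array was run only for comparisons that use its own group. Treatment counts moved from 0. With array weights, 8 genes passed for PDGFAA against Control IgG in Hec-1A, 6 for PDGFAA+3G3 against Control IgG in Hec-1A, 5 for the difference between the lines in the PDGFAA effect and 8 for that in PDGFAA+3G3 against Control IgG, where 14.3%, 11.5%, 7.98% and 13.1% of all probes passed; the weights were 0.20, 0.690 and 6.68 for Hec-1A Control IgG replicates 1, 2 and 3. On leaving out 1 array these counts ranged from 0 to 7, 0 to 4, 0 to 3 and 0 to 5, the highest each time without Hec-1A Control IgG replicate 2, and 1 for the last without RL95-2 PDGFAA+3G3 replicate 1. For PDGFAA+3G3 against Control IgG in Hec-1A, 1 gene passed with a filter at the 75th percentile, 1 with an intensity trend and robust moderation, and 3 at a threshold of 0.1; for its difference between the lines, 2 at 0.1. The cause was not tested. With a replicate block the line counts were 29, 23 and 23 and the treatment counts 0. Whether samples of the same number share more than that number is not known.

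Under Control IgG, unnormalized arrays had an all-probe median 0.11 higher in Hec-1A, and 68.1% of all calls were higher, against 50.7%, while the share among these genes was 68% against 65.5%. Under PDGFAA it was 38.4% of all calls against 52.2%, and 50% against 59.1% among these genes. The Control IgG calls on HK2, GAPDH, ENO1, LDHA, PFKFB3 and KDM3A were lost without normalization and with arrays scaled to a common median. Of the genes that passed under all 3 treatments, ENO1 and PKM also lost their PDGFAA calls in both settings. Without normalization both lost their PDGFAA+3G3 calls as well, and GPI lost its PDGFAA call. Genes near the array median, such as PDK1, EGLN3 in Hec-1A and ENO2, CA12 and VLDLR in RL95-2, have bounds at most, since dim signal limits what can be read.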
